A study of Mus musculus with 8 samples.

Results

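Mature miRNAs were compared between day 4 embryoid bodies (EBs) of KH2-DGCR8 cells given doxycycline (Dox) and day 4 EBs of the same cells without Dox. KH2 is a mouse embryonic stem cell (mESC) line built for Dox-inducible transgenes, here for DGCR8, and EBs are aggregates in which such cells leave pluripotency. Both groups carry the KH2-DGCR8 genotype, so the libraries without Dox hold the same transgene, not induced. The comparison covers 2 of the 8 libraries of the study, which also holds Dox and no Dox libraries of days 0, 1 and 2, and all 1099 miRNAs of its table. Each condition had 1 library. A ratio between the day 4 libraries therefore has counting error only, and no p-value can be given for it. The sources used here state neither the number of clones behind the line nor the day on which Dox was added.

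DGCR8 is the RNA-binding partner of DROSHA in the Microprocessor, the nuclear complex that cuts hairpins out of primary miRNA transcripts before DICER releases the mature duplex. Either arm of a hairpin, 5p or 3p, can be loaded into an Argonaute protein, and bases 2 to 8 of the loaded strand, the seed, do most of the target recognition. In mouse pluripotent cells the miR-290 cluster marks the naive state, and the miR-302 cluster is switched on as cells pass to the primed state of the epiblast. The question of the study was how overexpressed DGCR8 bears on miRNA production.

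The sequences below are shown because miRNAs of both stem cell clusters carry the same seed. Several mature strands of the miR-302 and miR-290 clusters share the seed AAGUGCU, given in capitals as bases 2 to 8, while RefSeq's miR-302c-3p starts such that the same letters lie 1 base earlier. The miR-302 hairpins lie at chr3:127545228-127545807 on the plus strand, with no annotated host gene on that strand. Genes of the other strand were not searched. The miR-290 hairpins lie at chr7:3218626-3220841, also on the plus strand (build GRCm38.p6, which is mm10). All sequences are from RefSeq on that build.
miR-302b-3p: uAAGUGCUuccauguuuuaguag
miR-302d-3p: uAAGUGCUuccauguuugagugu
miR-302c-3p: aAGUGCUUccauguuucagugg
miR-291a-3p: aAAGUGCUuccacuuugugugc
miR-294-3p: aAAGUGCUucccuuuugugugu
miR-295-3p: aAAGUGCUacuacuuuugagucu

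Another set is shown for miRNAs that stood apart from their own earlier days or from others of their seed. miR-32-5p, miR-92a-3p, miR-92b-3p and miR-367-3p share the seed AUUGCAC but lie in separate loci, and miR-10a-5p and miR-10b-5p share ACCCUGU. miR-17-5p carries AAAGUGC, the stem cell seed moved by 1 base.
miR-302a-5p: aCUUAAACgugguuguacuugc
miR-210-3p: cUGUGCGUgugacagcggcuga
miR-542-3p: uGUGACAGauugauaacugaaa
miR-10a-5p: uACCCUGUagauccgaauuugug
miR-10b-5p: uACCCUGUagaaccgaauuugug
miR-582-3p: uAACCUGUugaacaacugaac
miR-17-5p: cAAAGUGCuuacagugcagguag
miR-92a-3p: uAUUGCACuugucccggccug
miR-92b-3p: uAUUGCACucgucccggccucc
miR-32-5p: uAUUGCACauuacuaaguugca
miR-367-3p: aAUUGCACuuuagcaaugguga

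The deposited values are whole numbers that sum to nearly the same total in each library, and are taken as RPM, that is, miRNA reads brought to 1 common total. Taking the smallest matching total of each library, they imply 541342 reads with Dox and 362483 reads without Dox at day 4. By that rule these are the deepest and the shallowest of the 8 libraries, though most libraries matched more than 1 total. At these depths 1 read is worth 1.85 RPM with Dox and 2.76 RPM without Dox, and 3 reads are worth 5.54 RPM with Dox and 8.28 RPM without Dox. With Dox 730 miRNAs were above 0, and without Dox 695. The Dox library thinned to the depth of the other would be expected to show 687.7. The 10 most abundant miRNAs held 41.4% of the reads with Dox and 34.4% without Dox. Intervals given with ratios are exact conditional binomial ones at 95%, computed from the implied reads. They hold counting error alone, since reads are not independent molecules.

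The miR-290 cluster, which defines mESCs, held 22.9% of reads with Dox and 16.3% without Dox at day 4. Among lineage markers at day 4, those of mesenchyme and fibroblasts summed to 65418 RPM with Dox and 46385 RPM without Dox, most of it miR-21a-5p. Neural miRNAs summed to 14754 RPM with Dox and 19679 RPM without Dox, blood and endothelial miRNAs to 1874 RPM with Dox and 1398 RPM without Dox, endodermal ones to 643 RPM with Dox and 497 RPM without Dox, and those of heart and skeletal muscle to 160 RPM with Dox and 179 RPM without Dox. Some defining markers were at or near 0: miR-122-5p (liver) stood at 2 RPM with Dox and 0 RPM without Dox, miR-451a (erythroid cells) at 6 RPM in both libraries, and miR-144-3p (erythroid cells) and miR-137-3p (neurons) at 0 in both. The part of these cell types in the results that follow was not tested.

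None of the 10 most abundant miRNAs differed by 2-fold between the day 4 libraries. The miR-302 cluster and miR-210-3p were far lower with Dox, and rodent-specific miRNAs of the miR-297, miR-466, miR-467 and miR-669 families were higher. Counting was limited to the 499 miRNAs whose mean over the 8 libraries reached 10 RPM. Of these, 52 (10.4%) were at least 2-fold higher with Dox and 59 (11.8%) at least 2-fold lower, on the log2(value + 1) scale. The same shares were 8.42% higher and 9.62% lower at day 0, 8.82% and 4.41% at day 1, and 6.81% and 9.42% at day 2. At 4-fold the day 4 counts were 12 higher and 17 lower. The median log2 ratio of Dox over no Dox was -0.06, and 276 miRNAs (55.3%) lay within 1.5-fold. The counting interval of the ratio lay above 1 for 118 miRNAs (23.6%) and below 1 for 145 (29.1%). Both criteria together left 42 (8.42%) at least 2-fold higher and 48 (9.62%) at least 2-fold lower. Just at the line of 2-fold, miR-1968-5p had a log2 ratio of 1.01 and miR-362-5p of -1.02, while miR-151-5p at 0.99 and miR-205-5p at -0.99 fell short of it.

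**Figure D1:**
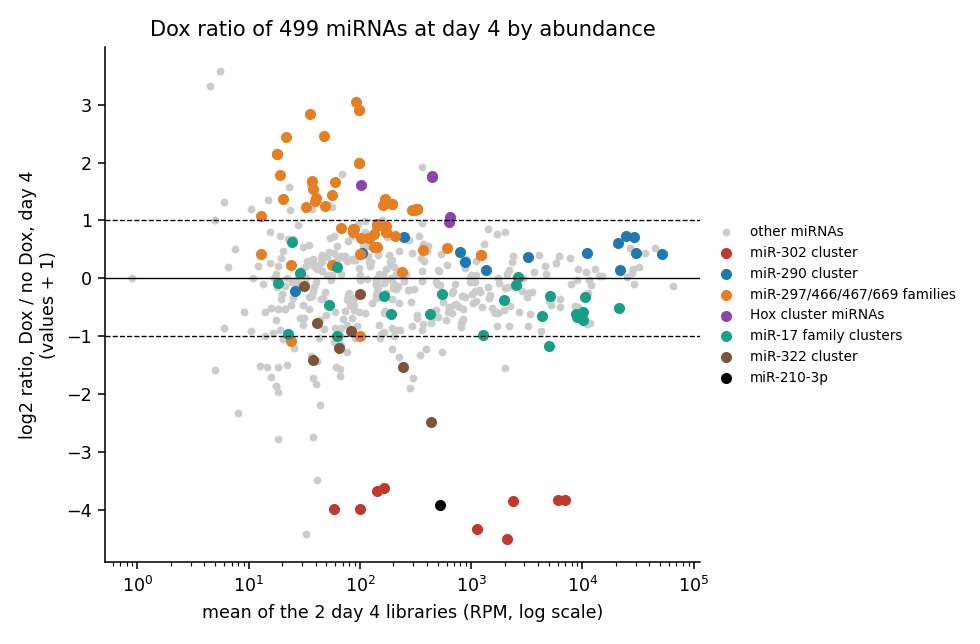
Log2 ratio of Dox over no Dox at day 4 (values + 1) against the mean of both day 4 libraries in RPM (log axis), 1 point for each of the 499 miRNAs counted; dashed lines mark 2-fold, and 1 miRNA at 0 in both libraries is drawn at the left edge. All 9 miR-302 cluster miRNAs lie below a log2 ratio of -3.6, and the highest points with colour belong to the miR-297, miR-466, miR-467 and miR-669 families.

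Ratios past 2-fold were more frequent among scarcer miRNAs, with 63 of the 160 miRNAs (39.4%) whose mean was 10 to under 50 RPM and 48 of the 339 (14.2%) with a higher mean. Of the miR-302 strands 5 stood between 2155 and 12939 RPM without Dox. None of the 10 most abundant miRNAs of day 4 reached 2-fold. miR-184-3p stood at 61695 RPM with Dox and 67642 RPM without Dox, miR-293-3p at 59319 RPM with Dox and 44466 RPM without Dox, and miR-21a-5p, common in mesenchymal cells, at 53151 RPM with Dox and 36898 RPM without Dox. These 3 were the highest at day 4, and their largest ratio was 1.44 (1.41 to 1.47), for miR-21a-5p. Of the 10, miR-294-3p differed most, at 36502 RPM with Dox and 22164 RPM without Dox, a log2 ratio of 0.72. Of the imprinted Dlk1-Dio3 region, miR-381-3p stood at 34043 RPM with Dox and 29750 RPM without Dox, miR-379-5p at 28559 RPM with Dox and 26837 RPM without Dox, and miR-300-3p at 27820 RPM with Dox and 29817 RPM without Dox.

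The miR-302 cluster gave the largest median difference of the lists with more than 1 miRNA counted. All 9 of its miRNAs were at least 2-fold lower with Dox, where the share of all 499 was 11.8%. Their median log2 ratio was -3.84, with a range from -4.50 to -3.62, against a median of -0.06 over all 499. miR-302b-3p had 145, 207, 300 and 914 RPM with Dox at days 0, 1, 2 and 4, against 126, 200, 439 and 12939 RPM without Dox. Values were higher on each later day in both treatments, and the treatments parted between days 2 and 4. miR-302d-3p had 104, 292, 553 and 800 RPM with Dox, against 126, 400, 1025 and 11363 RPM without Dox. miR-302a-3p had 41, 89, 253 and 310 RPM with Dox, against 78, 102, 429 and 4444 RPM without Dox. All 3 strands were lower with Dox at day 4 by close to the same fold: 14.1-fold (12.9 to 15.6) for miR-302b-3p, 14.2-fold (12.9 to 15.7) for miR-302d-3p and 14.3-fold (12.2 to 16.9) for miR-302a-3p.

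Another pair of strands was lower by more. miR-302a-5p, the other arm of the miR-302a hairpin, stood at 177 RPM with Dox and 4019 RPM without Dox at day 4, lower with Dox by 22.7-fold (18.4 to 28.2). miR-302c-3p stood at 107 RPM with Dox and 2155 RPM without Dox, lower with Dox by 20.1-fold (15.4 to 26.7). Its interval overlaps that of miR-302a-3p, whereas the interval of miR-302a-5p does not. The remaining 4 were scarce with Dox. miR-302c-5p had 13 reads with Dox against 111 without Dox, miR-367-3p 11 against 96, miR-302d-5p 6 against 68, and miR-302b-5p 3 against 40. Their folds ran from 12.8 to 19.9, and the interval of miR-302b-5p reached from 6.34 to 100.6.

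The whole cluster took 0.237% of reads with Dox and 3.58% without Dox at day 4, against 0.130% with Dox and 0.234% without Dox at day 2. At day 4 the Dox level of each of the 3 strands given by day above was still the highest of any Dox library. For miR-302b-3p both day 4 libraries lay above every earlier library, the one without Dox by far more. In these bulk samples, fewer cells that make these miRNAs and less of them per cell cannot be told apart.

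The miR-290 cluster, which declines as mESCs leave the naive state, was on the other side. Of its 14 miRNAs 13 were above 0 on the log2 scale, with a median of 0.44 and none past 2-fold. miR-294-3p had 54954, 59164, 43562 and 36502 RPM with Dox at days 0, 1, 2 and 4, against 62746, 54240, 45153 and 22164 RPM without Dox. miR-295-3p stood at 30513 RPM with Dox and 18412 RPM without Dox at day 4, miR-291a-3p at 24986 RPM with Dox and 16315 RPM without Dox, and miR-292a-5p at 34682 RPM with Dox and 25626 RPM without Dox. Day 4 was the lowest day of miR-294-3p in both treatments, and its value with Dox was the higher of the pair. The highest ratio of the cluster was that of miR-295-3p, at 1.66 (1.61 to 1.70), and the exception was miR-290a-3p, at 24 RPM with Dox and 28 RPM without Dox.

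Summed over the miRNAs known here to hold the shared seed, the day 4 libraries came close to each other. The 5 counted miRNAs with AAGUGCU (miR-291a-3p, miR-294-3p, miR-295-3p, miR-302b-3p and miR-302d-3p) summed to 93715 RPM with Dox and 81193 RPM without Dox, a ratio of 1.15 (1.14 to 1.17). Of the reads of these 5 miRNAs the miR-302 strands gave 1.83% with Dox and 29.9% without Dox at day 4, and at day 2 they gave 0.636% with Dox and 1.03% without Dox. The sum was thus made of different miRNAs: 92001 RPM from the miR-290 cluster with Dox against 56891 RPM without Dox, and 1714 RPM from the miR-302 cluster with Dox against 24302 RPM without Dox. Mature sequences were held for 395 of the 499 miRNAs counted, so seed sums cover those only. miR-302a-3p, at 310 RPM with Dox and 4444 RPM without Dox, had no sequence held. It is in no seed sum, so the miR-302 part may be understated, above all without Dox.

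**Figure D2:**
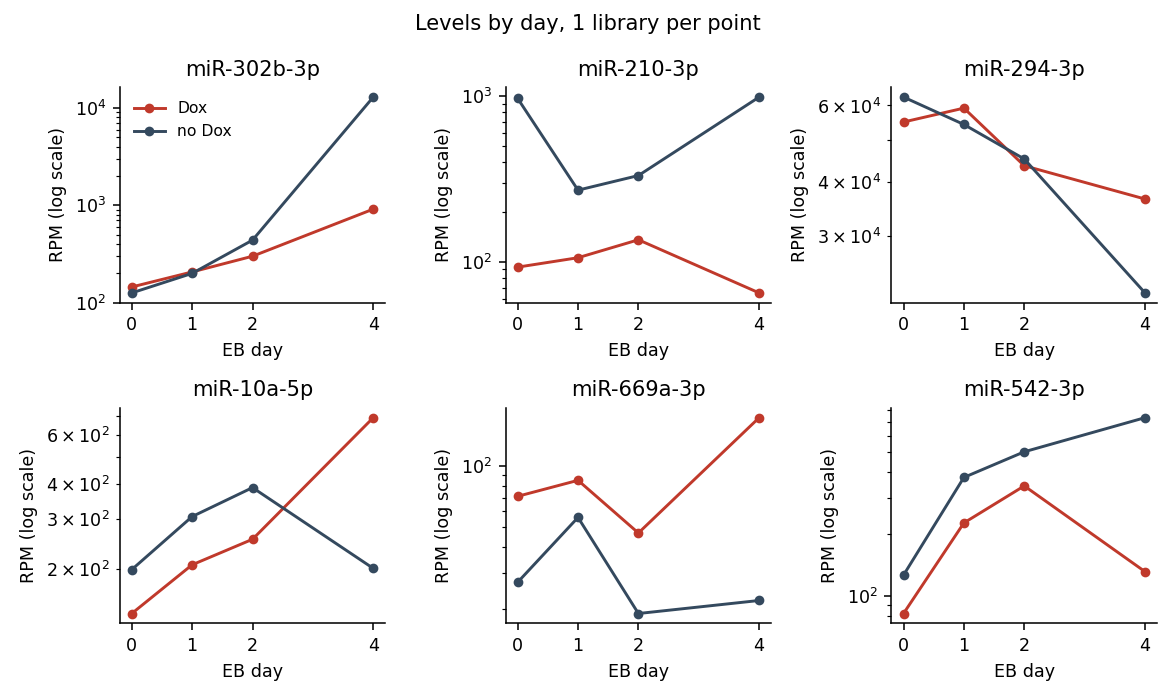
RPM (log axis, own scale per panel) by EB day for 6 miRNAs, Dox in red and no Dox in dark blue, 1 library per point. The treatments part at day 4 for miR-302b-3p and miR-294-3p and change order for miR-10a-5p, whereas miR-542-3p and miR-210-3p were lower and miR-669a-3p higher with Dox on every day.

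The difference of the day 4 pair from the earlier pairs was tested in limma, the only replication being the 3 Dox to no Dox ratios of days 0, 1 and 2. The test sets the day 4 log2 ratio against the mean of the other days, assumes that the day 4 pair varies like them and leaves 2 residual degrees of freedom. Day 4 was chosen for its wide spread of Dox ratios in these same values. The p-values make no allowance for that choice, so they only describe these libraries. Over the 499 miRNAs counted the SD of the log2 ratios was 1.06 at day 4, against 0.89, 0.76 and 0.81 at days 0, 1 and 2. Of 839 miRNAs tested, 9 (1.07%) passed an adjusted p of 0.05 (Benjamini-Hochberg), 2 with a higher and 7 with a lower ratio at day 4, and 101 had an unadjusted p under 0.05. Nothing in the labels says that libraries are from separate cultures, and the p-values measure the spread among these libraries, which may be technical. No miRNA passed without limma's robust option (93 at an unadjusted p under 0.05), without its variance trend (63), without the filter on low values (160), or without the pair of day 0 (74), day 1 (148) or day 2 (131). The log2 difference of miR-302b-3p, the miRNA with the lowest p, lay between -3.95 and -3.57 with a day pair left out.

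For 5 of the 9 miR-302 miRNAs the ratio of Dox over no Dox was lower at day 4 than on the earlier days in this test. The p-values here and below only describe these libraries, because day 4 was chosen for its wide spread in the same values. None of these calls held without limma's robust option, without its trend, or with a day pair left out. The difference in log2 ratio was -3.72 (SE 0.47, adjusted p = 3.22e-12) for miR-302b-3p, -3.29 (SE 0.45, adjusted p = 2.70e-10) for miR-302d-3p, and -3.97 (SE 0.57, adjusted p = 1.32e-09) for miR-302a-5p. It was -3.22 (SE 0.52, adjusted p = 2.19e-07) for miR-302a-3p and -3.52 (SE 0.68, adjusted p = 4.23e-05) for miR-302c-3p. The other 4, at 0 in at least 1 earlier library each, did not pass in limma.

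miR-210-3p, the miRNA most strongly induced by hypoxia-inducible factors, was low with Dox throughout. Its levels were 93, 106, 136 and 65 RPM with Dox at days 0, 1, 2 and 4, against 970, 271, 332 and 988 RPM without Dox. Day 4 with Dox was the lowest of the 8 libraries and day 4 without Dox the highest, although day 0 without Dox was nearly as high. The day 4 ratio lay below the mean of the earlier days by a log2 difference of -1.91 (SE 0.52, adjusted p = 0.0280 in limma), a call that was lost when libraries were scaled by their reads from outside the miR-290 cluster (adjusted p = 0.0914). Its log2 ratio was -3.37 at day 0, -1.35 at day 1, -1.28 at day 2 and -3.91 at day 4, so day 0 was close to day 4. Without the pair of day 0, day 1 or day 2 the difference lay between -2.59 and -1.55 and did not pass. miR-210-5p, the other arm, had 1 read with Dox and 7 reads without Dox.

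The miR-322 cluster at chrX:53047997-53054349 on the minus strand (miR-322, miR-351, miR-503, miR-542 and miR-450), known for restraining the cell cycle during differentiation, was lower with Dox. All 8 counted miRNAs were below 0, and 4 were at least 2-fold lower, where the share of all 499 was 11.8%. Their median log2 ratio was -1.06, against -0.06 over all 499. The summed level of the cluster was 528 RPM with Dox and 1561 RPM without Dox. miR-542-3p had 82, 226, 342 and 131 RPM with Dox at days 0, 1, 2 and 4, against 126, 376, 501 and 734 RPM without Dox. The Dox series turned down after day 2 while the series without Dox went on up. miR-542-3p was lower with Dox at day 4 by 5.60-fold (4.29 to 7.38), and its ratio fell relative to earlier days (log2 difference -1.85, SE 0.51, adjusted p = 0.0280 in limma). That call too was lost with scaling outside the miR-290 cluster (adjusted p = 0.0802). miR-450b-5p stood at 124 RPM with Dox and 359 RPM without Dox, and miR-503-5p at 39 RPM with Dox and 91 RPM without Dox. miR-351-5p, at 91 RPM with Dox and 110 RPM without Dox, had a ratio whose interval included 1 (0.529 to 1.28).

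The Hox cluster miRNAs lie between Hox genes and are switched on with them along the body axis. Of 5 counted, 4 were at least 2-fold higher with Dox and the fifth nearly so, where the share of all 499 was 10.4%. The 4 include miR-10a-5p and miR-10b-5p, whose values nearly match. The median log2 ratio of the 5 was 1.61, and the list summed to 3245 RPM with Dox and 1302 RPM without Dox. miR-10a-5p, on chromosome 11, had 139, 207, 255 and 689 RPM with Dox at days 0, 1, 2 and 4, against 199, 307, 389 and 201 RPM without Dox. Before day 4 it was lower with Dox on each day, and at day 4 the order was turned round. Its ratio rose relative to the earlier days by a log2 difference of 2.33 (SE 0.50, adjusted p = 5.29e-04 in limma). miR-10b-5p, within an intron of Hoxd3 and of Hoxd4 on chromosome 2, gave nearly the same values, at 685 RPM with Dox and 204 RPM without Dox at day 4. Values of the pair lay within 5.10% of each other in every library, so reads of either locus may have been counted for both, and the pair is best taken as 1 signal.

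The counted miR-196 strands of the same list were higher with Dox on every day. miR-196a-5p had 948, 1006, 1032 and 879 RPM with Dox at days 0, 1, 2 and 4, against 487, 665, 626 and 422 RPM without Dox. miR-196b-5p stood at 831 RPM with Dox and 422 RPM without Dox at day 4, with a log2 ratio of 0.98. miR-196a-1-3p stood at 155 RPM with Dox and 50 RPM without Dox. Day 4 therefore did not differ in direction from the earlier days for the counted miR-196 strands, unlike miR-10. miR-196a-2-3p, too scarce to be counted, had a mean log2 ratio of -0.53 over days 0, 1 and 2 and of 2.32 at day 4.

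**Figure D3:**
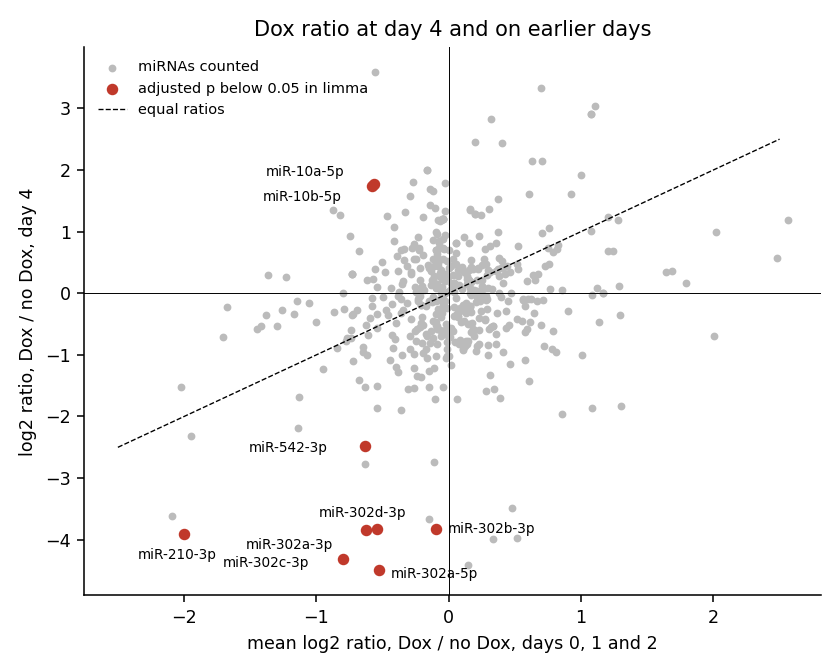
Log2 ratio of Dox over no Dox at day 4 against the mean of the log2 ratios of days 0, 1 and 2, 1 point for each of the 499 miRNAs counted, with the 9 that passed in limma in red. miR-10a-5p and miR-10b-5p lie far above the line of equal ratios, and the 5 miR-302 strands, miR-210-3p and miR-542-3p far below it.

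Rodent-specific miRNAs of the miR-297, miR-466, miR-467 and miR-669 families made up most of those higher with Dox. In GENCODE's annotation 71 of 81 such hairpins lie within Sfmbt2 (chr2:10370510-10595253, plus strand), a Polycomb gene that is imprinted in mouse, on the strand of the gene. Of 59 counted, 32 were at least 2-fold higher with Dox and 2 at least 2-fold lower, where the shares of all 499 were 10.4% and 11.8%. The median log2 ratio of the 59 was 1.18. Many of these miRNAs are near copies of each other: 52 different sets of values stood behind the 59, of which 27 were 2-fold higher and 2 lower. Of the 52 miRNAs at least 2-fold higher with Dox, 20 lay outside these families. The families' share of reads was 1.28% with Dox and 0.713% without Dox.

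miR-669a-3p, whose values were identical to those of miR-669o-3p, had 71, 85, 47 and 172 RPM with Dox at days 0, 1, 2 and 4, against 27, 56, 19 and 22 RPM without Dox. It was higher with Dox on each day and furthest so at day 4, with a ratio of 7.78 (3.79 to 18.6). miR-669a-3-3p stood at 164 RPM with Dox and 19 RPM without Dox, a ratio of 8.51 (3.96 to 21.8). miR-297b-5p stood at 63 RPM with Dox and 8 RPM without Dox, and miR-297c-5p at 81 RPM with Dox and 14 RPM without Dox. Without Dox both were below every earlier library. miR-297b-3p and miR-297c-3p, again with identical values, stood at 159 RPM with Dox and 39 RPM without Dox. The most abundant miRNA of the families, miR-467a-5p, differed by less, at 1402 RPM with Dox and 1062 RPM without Dox. None of the 75 tested passed for a day 4 ratio that differed from the earlier days in limma, where 17 had an unadjusted p under 0.05, all with a higher ratio at day 4. Of all 839 tested, 41 had such a p with a higher ratio.

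By arm, counts of these hairpins past 2-fold were unequal. Of the 22 counted 3p miRNAs of the families, which hold 17 different sets of values, 21 (95.5%) were at least 2-fold higher with Dox at day 4, with a median log2 ratio of 1.32. Of the 31 counted 5p miRNAs 7 (22.6%) were, with a median of 0.77. Among all other miRNAs counted the shares were 4.02% of 199 3p and 5.61% of 214 5p miRNAs, in the same libraries. Over the 52 different sets of values, 3p miRNAs held 34.2% of the families' level in named arms with Dox and 22.1% without Dox at day 4. The share was 13.6% with Dox and 18.5% without Dox at day 2, 33.0% with Dox and 26.8% without Dox at day 1, and 26.4% with Dox and 26.99% without Dox at day 0. It therefore varied as much between days as between treatments. In the miR-669a hairpin, the 5p strand stood at 218 RPM with Dox and 124 RPM without Dox while the 3p strand had the values given above. Of 21 hairpins of the families with both arms counted, the 3p arm had the higher ratio of Dox over no Dox in 16 and the 5p arm in 5, such as miR-297b and miR-466f. In miR-466i the arms were opposed, with 5p at 67 RPM with Dox and 135 RPM without Dox, and 3p at 57 RPM with Dox and 17 RPM without Dox.

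**Figure D4:**
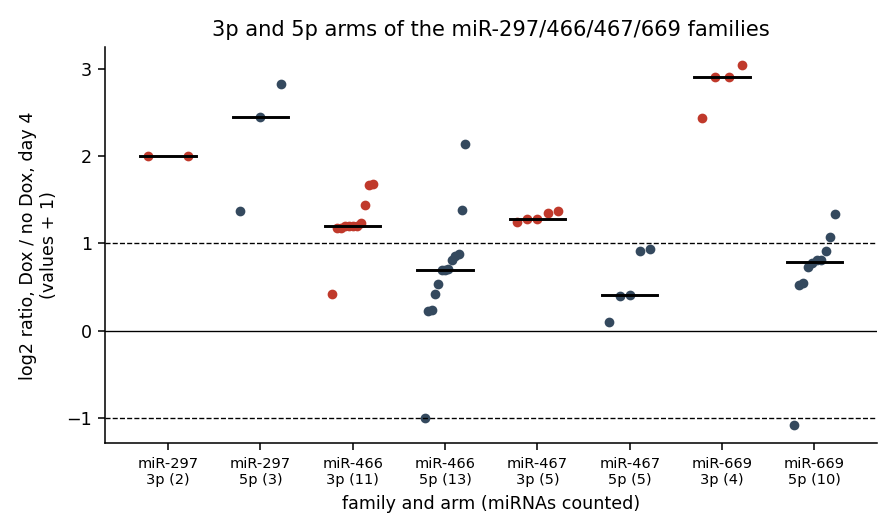
Log2 ratio of Dox over no Dox at day 4 for the 3p (red) and 5p (dark blue) miRNAs of the miR-297, miR-466, miR-467 and miR-669 families, 1 point per miRNA, with medians as black lines and 2-fold as dashed lines; points at the same height are often rows with shared reads. All 3p points except 1 lie above 2-fold, and most 5p points between 0 and 2-fold.

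Across all hairpins with both arms counted, the arms tended to move together. Of 146 pairs 101 (69.2%) had the same sign, and the arms' log2 ratios were correlated across hairpins at a Pearson's r of 0.72, or 0.55 over the 142 pairs outside the miR-302 cluster. Both values describe these 2 libraries, which all pairs share. Of 48 pairs with at least 1 arm past 2-fold, 43 had the same sign in both arms. In some hairpins the arms were opposed. miR-3068-5p stood at 129 RPM with Dox and 86 RPM without Dox, while miR-3068-3p stood at 116 RPM with Dox and 270 RPM without Dox. miR-27a-5p stood at 425 RPM with Dox and 254 RPM without Dox, while miR-27a-3p stood at 7186 RPM with Dox and 10045 RPM without Dox. Both arms of miR-152 were lower with Dox, by unequal amounts. miR-152-5p had 1 read with Dox and 23 without Dox, and miR-152-3p stood at 949 RPM with Dox and 1247 RPM without Dox.

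The miR-17 family clusters, which drive proliferation and hold the seed AAAGUGC, were moderately lower with Dox. Of 24 counted miRNAs 20 were below 0, and 2 were at least 2-fold lower, where the share of all 499 was 11.8%. Their median log2 ratio was -0.49, against -0.06 over all 499. The clusters' share of reads was 7.69% with Dox and 11.2% without Dox. miR-17-5p stood at 8176 RPM with Dox and 12183 RPM without Dox, and miR-20a-5p at 7605 RPM with Dox and 12533 RPM without Dox. miR-18b-5p, the lowest, had 1069, 2333, 3548 and 3094 RPM with Dox at days 0, 1, 2 and 4, against 1037, 1981, 4166 and 6930 RPM without Dox. The 6 miRNAs with AAAGUGC summed to 31232 RPM with Dox and 47024 RPM without Dox. None of the 28 tested passed for a changed ratio at day 4 in limma, where 5 had an unadjusted p under 0.05, all with a lower ratio at day 4. Of all 839 tested, 60 had such a p with a lower ratio.

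Of the 6 counted miRNAs that share the seed AUUGCAC, all but miR-32-5p were lower with Dox. miR-25-3p stood at 9434 RPM with Dox and 11830 RPM without Dox, and miR-363-3p at 6909 RPM with Dox and 10977 RPM without Dox. miR-92a-3p stood at 17654 RPM with Dox and 25204 RPM without Dox, miR-92b-3p at 120 RPM with Dox and 447 RPM without Dox, and miR-367-3p of the miR-302 cluster at 20 RPM with Dox and 265 RPM without Dox, while miR-32-5p stood at 2551 RPM with Dox and 1457 RPM without Dox. The 6 counted members summed to 36688 RPM with Dox and 50180 RPM without Dox. The ratio of miR-32-5p was 1.75 (1.58 to 1.94), and miR-92b-3p was lower with Dox by 3.72-fold (2.77 to 5.04).

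The miR-200 family, which guards the epithelial state by holding down Zeb1 and Zeb2, was lower with Dox in all 7 miRNAs counted, none past 2-fold, with a median log2 ratio of -0.62. miR-200b-3p stood at 2978 RPM with Dox and 5562 RPM without Dox, miR-200a-3p at 2638 RPM with Dox and 4050 RPM without Dox, and miR-429-3p, of the same transcript, at 624 RPM with Dox and 1043 RPM without Dox. miR-200c-3p and miR-141-3p, from the other locus of the family, stood at 1590 RPM with Dox and 2323 RPM without Dox, and at 538 RPM with Dox and 814 RPM without Dox. The loci thus lay at the same side of the comparison. None of the 9 tested passed in limma for a changed ratio.

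miR-103-3p and miR-107-3p, which lie in introns of Pank genes and temper insulin signalling and Dicer itself, were lower with Dox and close to each other in value, at 8632 RPM with Dox and 14704 RPM without Dox for miR-103-3p, and at 8013 RPM with Dox and 13860 RPM without Dox for miR-107-3p. Values of this pair lay within 7.20% of each other in every library, so reads may have been counted for both. Of 499 miRNAs counted, 49 belonged to 30 pairs whose values lay within 10% of each other in every library, and such pairs are not separate observations.

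The 84 counted miRNAs of the imprinted Dlk1-Dio3 region, a maternally expressed cluster on chromosome 12, centred near all miRNAs, with a median log2 ratio of -0.16. Of them 10 were at least 2-fold lower with Dox and 1 at least 2-fold higher, where the shares of all miRNAs counted were 11.8% and 10.4%, and 59 were below 0. The region held 21.2% of reads with Dox and 22.2% without Dox. Its abundant members differed little: miR-127-3p, which targets Rtl1, stood at 25054 RPM with Dox and 24776 RPM without Dox. The lower ones were scarcer, such as miR-1197-3p at 140 RPM with Dox and 463 RPM without Dox and miR-380-5p at 321 RPM with Dox and 775 RPM without Dox, both chosen after their values were seen. miR-376a-3p was the 1 higher, at 74 RPM with Dox and 30 RPM without Dox, and its 5p arm stood at 137 RPM with Dox and 141 RPM without Dox.

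The let-7 family, which matures late as stem cells differentiate because LIN28 blocks its precursors, was low in both libraries. Its 9 counted miRNAs had a median log2 ratio of -0.47 with none past 2-fold. let-7a-5p stood at 584 RPM with Dox and 808 RPM without Dox, and let-7g-5p at 216 RPM with Dox and 174 RPM without Dox. In the miR-183 cluster, active in sensory epithelia and stem cells, miR-182-5p stood at 42215 RPM with Dox and 31199 RPM without Dox and miR-183-5p at 30096 RPM with Dox and 26790 RPM without Dox. miR-148a-3p, which targets DNA methyltransferases, stood at 31766 RPM with Dox and 21979 RPM without Dox. The p53-induced miR-34c-5p stood at 1240 RPM with Dox and 2196 RPM without Dox, while miR-34a-5p, from another locus, stood at 1046 RPM with Dox and 1095 RPM without Dox.

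Of the other families, the median log2 ratio was 0.18 for 11 miR-30 miRNAs, 0.07 for 7 of the miR-99/100 and miR-125 families, 0.06 for 9 miR-15/16 miRNAs, -0.20 for 5 miR-181 miRNAs and -0.47 for 8 miRNAs of miR-130 and miR-301. That of the 8 miR-23/27/24 miRNAs was -0.07, and took the other sign, at 0.05, with scaling outside the miR-290 cluster. That scaling moved the median of all 499 miRNAs by 0.11.

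Among lineage miRNAs, 11 of the 12 neural ones counted were below 0, with a median log2 ratio of -0.51, against -0.06 over all 499. The 12 are not separate observations. Values of miR-7a-5p and miR-7b-5p lay within 7.13% of each other in every library, and miR-124 and miR-9 enter with both arms. Of the 12 neural miRNAs 3 were at least 2-fold lower, where the share of all 499 was 11.8%. All 3 were scarce: miR-124-5p (9 RPM with Dox and 66 RPM without Dox), miR-124-3p of the same hairpin, and miR-219a-5p (15 RPM with Dox and 36 RPM without Dox). miR-9-5p, a neural progenitor miRNA, stood at 5211 RPM with Dox and 7302 RPM without Dox. miR-124-3p, the main miRNA of neurons, stood at 20 RPM with Dox and 52 RPM without Dox, below its day 0 level of 156 RPM with Dox and 179 RPM without Dox. The 1 neural miRNA above 0, miR-128-1-5p, had 6 reads with Dox and was at 0 without Dox. A floor of 3 reads put in for the 0 gives a ratio of 1.33. The counting interval of the ratio started at 0.788, so it included 1. In the heart and muscle list the counted members were opposed: miR-499-5p, in an intron of Myh7b, stood at 107 RPM with Dox and 30 RPM without Dox, and miR-133a-3p at 31 RPM with Dox and 91 RPM without Dox. miR-126a-3p of endothelial cells stood at 1565 RPM with Dox and 1040 RPM without Dox, miR-192-5p of endoderm at 462 RPM with Dox and 334 RPM without Dox, and miR-143-3p of mesenchyme at 1816 RPM with Dox and 1004 RPM without Dox. These 3 lists also held miRNAs on the other side. Of 8 blood and endothelial miRNAs counted 5 were above 0 and 3 below, the lowest being miR-221-3p with a log2 ratio of -1.28. Of 3 endodermal ones 2 were above 0 and 1 below, and of 13 of mesenchyme and fibroblasts 9 were above and 4 below. None of the lineage lists had a miRNA that passed in limma.

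**Figure D5:**
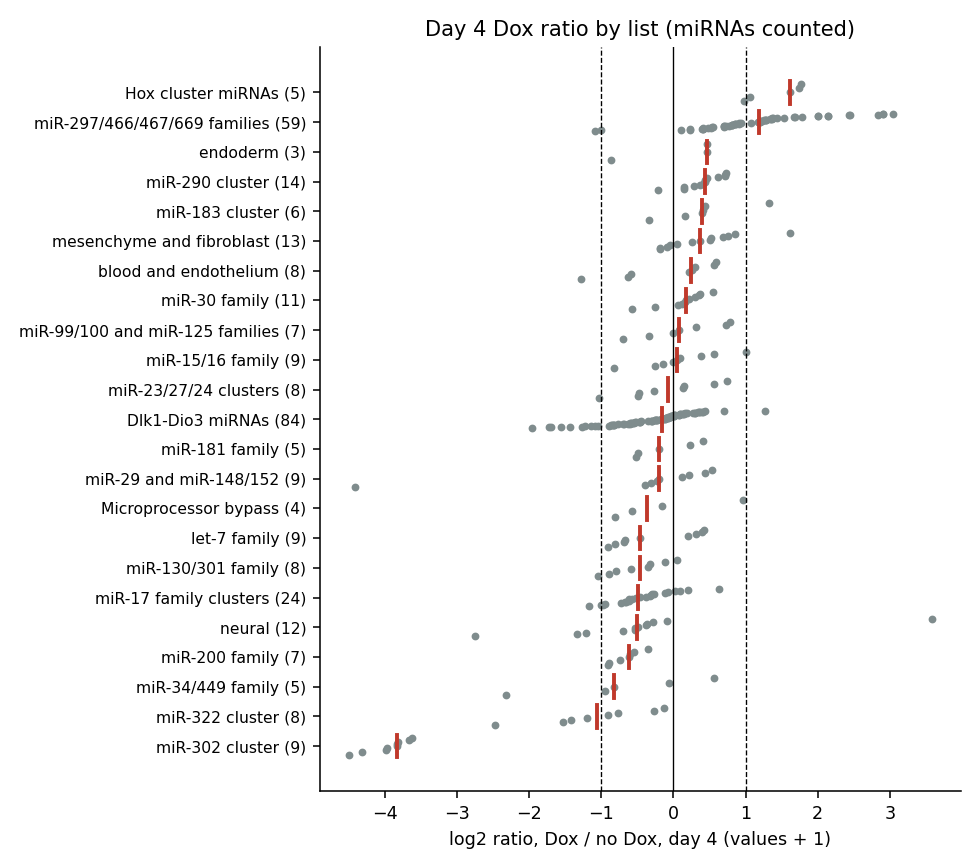
Log2 ratio of Dox over no Dox at day 4 for the counted miRNAs of each list, 1 point per miRNA, number counted in brackets, red bars at the medians and dashed lines at 2-fold. Lists with fewer than 3 miRNAs counted are not drawn. The medians run from 1.61 for the Hox cluster miRNAs to -3.84 for the miR-302 cluster, and most lie within 2-fold.

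miR-1306 lies in an exon of Dgcr8, in a hairpin that the Microprocessor itself cuts from the Dgcr8 mRNA. miR-1306-5p stood at 13 RPM with Dox and 14 RPM without Dox, and miR-1306-3p at 11 RPM in both libraries, each a handful of reads. These values do not check the induction of DGCR8, since the sources used here do not state whether the transgene holds this exon. Of miRNAs reported to need no Microprocessor, 4 were counted. miR-1981-5p stood at 475 RPM with Dox and 243 RPM without Dox, miR-320-3p at 211 RPM with Dox and 372 RPM without Dox, miR-484 at 135 RPM with Dox and 201 RPM without Dox, and miR-877-5p at 17 RPM with Dox and 19 RPM without Dox, so they had no common direction. The share of 3p miRNAs among all reads was 55.7% with Dox and 57.8% without Dox.

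Outside the lists 168 miRNAs were counted, of which 10 were at least 2-fold higher and 22 at least 2-fold lower with Dox, where the shares of all 499 were 10.4% and 11.8%. miR-582-3p, in an intron of Pde4d, had 336, 545, 517 and 567 RPM with Dox at days 0, 1, 2 and 4, against 177, 225, 294 and 149 RPM without Dox. It was higher with Dox on every day, by a ratio of 3.81 (2.84 to 5.18) at day 4, when the level without Dox was at its lowest. miR-653-5p, in an intron of the calcitonin receptor gene Calcr, had 3 reads with Dox and 28 reads without Dox, a ratio of 0.0717 (0.0140 to 0.232), and was at or below 12 RPM in each library of the earlier days. miR-190b-5p had 5 reads with Dox and was at 0 without Dox. A floor of 3 reads put in for the 0 gives a ratio of 1.09, and so few reads do not show a difference.

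The day 4 levels were also set against the range of the earlier libraries, which does not assign each difference to a treatment. Of the 59 miRNAs at least 2-fold lower with Dox, the Dox library lay below the range of the 6 libraries of days 0 to 2 in 8 (13.6%), against 11.8% of all counted, and the library without Dox above it in 46 (78.0%), against 39.7%. Of the 52 at least 2-fold higher with Dox, the Dox library lay above the range in 34 (65.4%), against 32.9% of all counted, and the library without Dox below it in 16 (30.8%), against 14.4%. A level set by either day 4 library enters both the ratio and these counts, so they describe the calls and do not support them.

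By distance, the day 4 library without Dox was the further one from the earlier days. The root mean square log2 difference over the 499 miRNAs was 1.07 between day 4 and day 2 with Dox and 1.27 between day 4 and day 2 without Dox. Against day 0 it was 1.47 with Dox and 1.83 without Dox. The day 4 Dox library was as far from day 4 without Dox, at 1.06, as from day 2 with Dox. Day 4 was chosen for its wide spread of Dox ratios, so their SD is only a description. Over the 499 miRNAs it was 1.06 at day 4, against 0.89, 0.76 and 0.81 at days 0, 1 and 2. Among the 271 miRNAs whose mean reached 100 RPM the SD was 0.89 at day 4, against 0.55, 0.43 and 0.49 at days 0, 1 and 2. Without the miR-302 cluster and the miR-297, miR-466, miR-467 and miR-669 families it was 0.66 at day 4, against 0.57, 0.45 and 0.48.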

How the data were processed

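Per the labels' protocols, RNA was isolated with TRIzol and small RNA libraries were built with an NEBNext kit. The authors deposited scores in a table of 1099 miRNAs: whole numbers with sums from 999965 to 1000047 per library, as rounded RPM would give. Bowtie and mm10 are named in the submitters' processing notes. The sources used here do not state the counting tool, the strand setting or the treatment of reads with several matches. The blank row of the table, 1 in all, was left out.

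Read totals were recovered by searching for the smallest total at which every value is a whole number of reads within 0.5 RPM. For day 4 with Dox 1 total was found in the range searched, and for day 4 without Dox 2, of which the smaller was used, so intervals there are the wider choice. The libraries without Dox of days 0, 1 and 2 matched 207, 185 and 192 totals, so the order of depth rests on the smallest ones. Ratios are log2(value + 1), which understates those of low miRNAs. Differences of at least 2-fold are counted among the 499 miRNAs whose mean over 8 libraries reached 10 RPM. A 0 is set against a floor of 3 reads per library. Limma 3.58.1 in R 4.3.3 (trend and robust options, threshold 0.05, Benjamini-Hochberg) fitted day, Dox and Dox within day 4 to 839 miRNAs that reached a value of 1 in 2 or more libraries. Raw counts would have called for a count test, and the table required limma. Prior degrees of freedom were infinite for all but 2 miRNAs, so the SE of most comes from the trend. Python 3.11.15 was used for the rest.

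Named miRNAs are the 12 highest and 12 lowest ratios whose interval excludes 1, the 10 most abundant at day 4, those passing in limma and up to 4 of each list, the most abundant ones. Others were chosen after their values were seen. The comparison, lists and members were chosen with earlier results of these data known. Other scalings, pseudocounts, filters, limma options and left-out day pairs were tried.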

Additional observations from a re-analysis of the deposited data

Results flagged for a closer look

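The Dox ratio of 9 miRNAs differed between day 4 and the earlier days in limma's test of the difference, fitted over 839 miRNAs. The log2 difference, day 4 minus the mean of days 0, 1 and 2, was negative for miR-302a-5p (-3.97), miR-302b-3p (-3.72), miR-302c-3p (-3.52), miR-302d-3p (-3.29) and miR-302a-3p (-3.22). It was also negative for miR-210-3p (-1.91) and miR-542-3p (-1.85). It was positive for miR-10a-5p (2.33) and miR-10b-5p (2.33), whose values nearly match in every library. For miR-302b-3p the log2 ratio of Dox over no Dox was -3.82 at day 4 and averaged -0.10 over the earlier days, and for miR-10a-5p it was 1.77 at day 4 and averaged -0.56. Groups of 1 library leave no sample to be compared with others of its own condition. Day 4 was chosen for its wide spread of Dox ratios, so these differences are a description.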

How the results depend on the processing

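No named miRNA or list median past 2-fold, and no miRNA called in limma, changed sign under an alternative run. For ratios and medians past 2-fold this could not have come out otherwise. The scalings moved the median of all 499 miRNAs by only -0.03 and 0.11, and a pseudocount cannot turn a sign. With scaling to reads outside the miR-290 cluster 2 medians near 0 changed sign, from -0.07 to 0.05 for the miR-23, miR-27 and miR-24 clusters and from -0.10 to 0.01 for the Dgcr8 hairpin. The counts at day 4 (52 higher, 59 lower) became 24 and 24 of 339 with a mean of at least 50 RPM, and 182 and 169 of 809 without a filter, since different miRNAs were counted. Scaling to reads outside the miR-290 cluster gave 60 higher and 48 lower. Of the list medians under other scalings and pseudocounts 84 stayed within counting error and 20 moved beyond it, and of the named ratios 431 stayed and 33 moved. In limma 9 calls became 14 with a pseudocount of 5, 0 without a filter on low values, 0 without the robust option, 0 without the trend, and between 0 and 0 when the pair of day 0, day 1 or day 2 was left out; for the losses the cause was not tested. Scaling outside the miR-290 cluster gave 8, of which 7 were among the 9, and limma-voom on implied reads gave 13. The fit pairs the libraries of a day by its day term. No paired analysis was possible by replicate number because the labels give none. Depth limits the low miRNAs: values below 5.54 RPM with Dox or 8.28 RPM without Dox rest on fewer than 3 reads.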
